A study of Triticum aestivum with 12 samples.

Results

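The comparison described here is grain maturation in the bread wheat cultivar WL711, measured as the 3 arrays of developing grain at 28 days after anthesis (DAA) against the 3 arrays at 14 DAA. All 61179 probe sets of the Affymetrix GeneChip Wheat Genome Array that are not Affymetrix controls were tested, and the 6 arrays belong to a series of 12. The study compared WL711, a cultivar of the period after the green revolution with low grain mineral content, with IITR26, a landrace with high grain iron, zinc and manganese. Neither a transgene nor a treatment was part of the design, and both genotypes were grown in the field and gave 3 arrays at each stage. Flowering ears were marked on 3 plants per genotype, and each RNA sample came from 3 whole grains of the middle of the ear, so that grains of different samples may have come from 1 plant.

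In the weeks covered by this comparison a wheat grain moves from active filling towards maturity. The starchy endosperm fills with starch and with gluten proteins, the embryo and the aleurone layer acquire tolerance of drying with the help of late embryogenesis abundant (LEA) proteins, many of them under the control of abscisic acid, and the green layer of the pericarp loses its chlorophyll. The embryo and the endosperm also accumulate inhibitors and enzymes that act on fungi and insects.

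Each value is a relative level, a log2 value from which the median of that probe set over all 12 arrays has been taken. It can be compared between arrays but not between probe sets, and it does not tell whether a transcript was absent. Whole grains were used, so fewer cells of a type and less RNA per cell cannot be told apart. A probe set was called when the adjusted p of limma was at most 0.01 and the log2 fold change, 28 DAA minus 14 DAA, was at least 2 in either direction, which is a 4-fold difference. Only called probe sets are said to have risen or fallen.

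The array labelled WL711 28 DAA replicate 1 stood apart from its group on these centred values. The paper reports that replicates lay near each other in a principal component analysis and correlated highly. That analysis was not repeated here, and correlations of centred values need not match those of the paper. Pearson correlations over all probe sets were 0.883 to 0.903 between the WL711 14 DAA arrays and 0.672 between replicates 2 and 3 at 28 DAA, but 0.286 to 0.412 between replicate 1 and the other two. With the IITR26 arrays at 28 DAA, replicate 1 correlated at 0.365 to 0.395, and replicates 2 and 3 at 0.0375 to 0.235.

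The array was also set against probe sets that separate the genotypes at both stages. Without using replicate 1, 348 probe sets had all 5 other WL711 arrays at least 1 log2 unit above, or below, all 6 IITR26 arrays. On a scale on which 0 is the IITR26 mean and 1 the WL711 mean, replicate 1 lay at 0.25 or below for 158 of them, at 0.75 or above for 136, and between for 54. The same count for each of the other 11 arrays, made over 151 to 161 probe sets chosen without that array, put at most 3.73% of them nearer to the other genotype. An F-box protein probe set read −3.23, −3.23 and −3.16 at 14 DAA and 0.46, −2.91 and −3.03 in replicates 1 to 3 at 28 DAA, while the IITR26 means were 0.96 and 0.30. A SKP1-like protein read −3.97, −3.92 and −3.84 at 14 DAA and −0.26, −4.14 and −4.17 at 28 DAA, with IITR26 means of 0.40 and 0.69. In both, replicate 1 alone was high. Of the 348 probe sets, 8 were called between the stages with the array and 10 without it. The identity of the sample is therefore in doubt, and so is what the mean of the 3 late arrays stands for. The array was kept under its label, and the results below carry their values without that array where it matters.

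**Figure D1:**
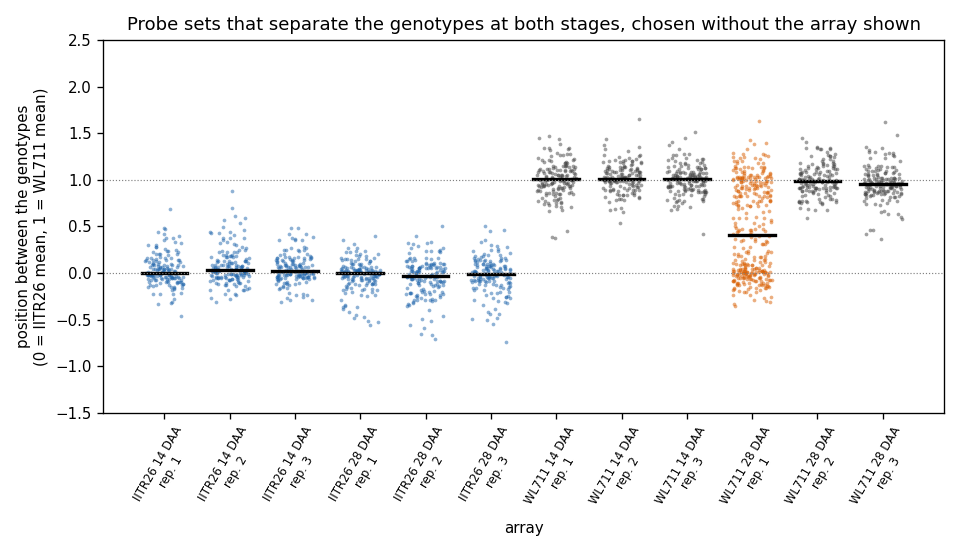
Position of each array (x axis) between the genotypes, for probe sets that separate IITR26 from WL711 at both stages and were chosen without the array shown; 0 is the IITR26 mean, 1 the WL711 mean, each point is a probe set and the bar is the median. The medians of 11 arrays lie close to 0 or to 1, and WL711 28 DAA replicate 1 has its points in clusters at both levels, with a median of 0.409; 1 point lies outside the drawn range.

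Between 14 and 28 DAA, 586 probe sets rose in WL711, which is 0.958% of those tested, and 819 fell, which is 1.34%. In all of the 1405 called probe sets, 2.3% of those tested, the 3 arrays of one stage did not overlap the 3 of the other, which was also the case for 18.7% of all probe sets in the upward and 18.2% in the downward direction, 36.9% in all. The median change over all probe sets was 0.03 on the log2 scale. Changes were large: 190 probe sets rose and 190 fell by at least 4 log2 units. Without replicate 1 at 28 DAA, 587 rose (0.959%) and 742 fell (1.21%), and 552 and 724 of these were called in the same direction with all 6 arrays. No called probe set changed sign.

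A name was at hand for 623 probe sets. Of these, 431 carried a putative function. That group had been selected for differences between the genotypes on these same arrays, so that its direction here is not independent evidence. Another 192 had only a gene name of the platform annotation. These are what remained once the probe sets with a function in the study's list were set apart. They lack the probe sets that passed the study's selection and are therefore not an unselected control. The difference of the stage changes from IITR26, described below, was still called for 13 of them. Of the 431, 60 rose and 146 fell; of the 192, 18 rose and 10 fell. The other 1171 called probe sets had no name; the largest changes among them were 1 that rose by 9.09 (SE 0.80) and 1 that fell by 8.99 (SE 0.61) in log2 fold change.

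Transcripts of proteins that protect seeds during drying made up the group with the highest median change. Of 20 probe sets for LEA and dehydration proteins, 16 rose and none fell, with a median log2 fold change of 5.64; without replicate 1, 15 rose and the median was 5.35. Of the 10 that were not chosen by the study, 9 rose. Em, a small hydrophilic LEA protein of the embryo, had the largest rise of all probe sets tested. Its probe set read −6.59, −6.56 and −6.37 at 14 DAA and 4.68, 4.43 and 3.1 at 28 DAA. All 3 late arrays were far above all 3 early ones, a log2 fold change of 10.58 (SE 0.67, adjusted p = 7.44e-07), or 1529-fold. A probe set of the related Em gene EMH2 rose by 10.38 (SE 0.62) in log2 fold change; probe sets of this small family can share transcripts and are not independent.

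Rab15, a dehydrin that answers to abscisic acid, rose by 6.52 (SE 0.41, adjusted p = 7.42e-07). LEA-12, a LEA protein the study followed by quantitative PCR, read −5.33, −5.43 and −5.28 at 14 DAA and 1.46, 0.96 and 0.64 at 28 DAA. The arrays of the stages were again far apart, and the log2 fold change was 6.36 (SE 0.28, adjusted p = 7.05e-08). HVA22, a membrane protein induced by abscisic acid in barley aleurone, rose by 5.92 (SE 0.27). The desiccation-related protein PCC13-62 rose by 5.36 (SE 0.33) and the embryonic protein DC-8 by 4.6 (SE 0.41).

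Oleosin and caleosin are the coat proteins of the oil bodies of embryo and aleurone, and they did not move together. The oleosin probe set read −4.87, −5.33 and −4.45 at 14 DAA and 1.39, 1.15 and 0.61 at 28 DAA, a log2 fold change of 5.94 (SE 0.32, adjusted p = 2.38e-07). The caleosin-related probe set read 0.71, 0.89 and 0.79 early and −0.90, −0.71 and −1.42 late. Its arrays did not overlap either, in the opposite order, but the log2 fold change of −1.81 (SE 0.24, adjusted p = 0.000251) was short of the size needed for a call. A small heat shock protein rose by 2.12 (SE 0.37), and without 14 DAA replicate 2 its log2 fold change was 1.84 and the call ended.

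**Figure D2:**
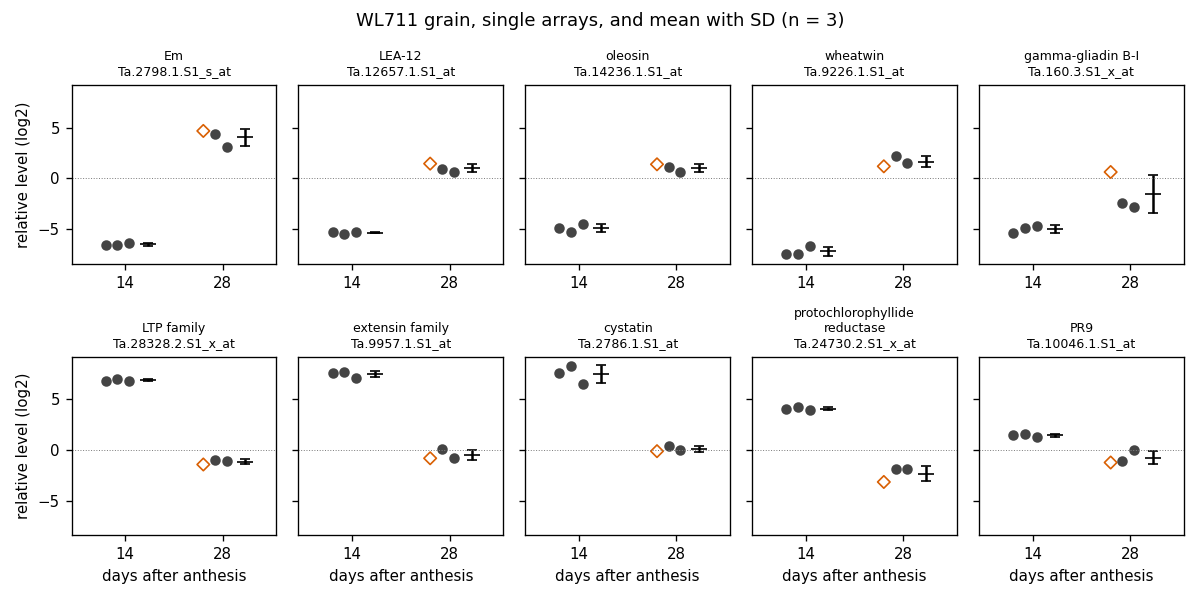
Relative level (log2, y axis) of 10 named probe sets on the single WL711 arrays at 14 and 28 DAA (x axis), with the mean and SD of each 3 arrays beside them; circles are arrays and the open diamond is the array labelled 28 DAA replicate 1. In the top row the late arrays lie above the early ones and in the bottom row below them, and for gamma-gliadin B-I the diamond stands more than 3 log2 units above the other late arrays (0.63 against −2.41 and −2.86).

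The primer pairs that the study designed for quantitative PCR are shown for 3 probe sets, one that rose, one that fell and one that was not called, because they mark the stretch of transcript that was followed outside the array. They are written 5′ to 3′ as the study's supplement gives them, with no bases marked.
LEA-12, forward: cgtgcagtacaataaggacgacggcc
LEA-12, reverse: tgcagattcaggtgctgcgtcggga
LTP family, forward: actgctagaccgagtatggctcagctata
LTP family, reverse: acacataacagggaacatgcgtgcgtg
metallothionein, forward: gcgagcacgaggatgaggaggagaa
metallothionein, reverse: cgtacagaactaaggaacacatgacggtt

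Of 23 probe sets for storage proteins, 7 rose and none fell, with a median log2 fold change of 0.75; without replicate 1, 6 rose, and without 14 DAA replicate 1, 4 rose. Of the 7 that rose, 5 were among those that the study had chosen, and 2 were among the 16 others, whose median was 0.18. The globulins of the cupin family, stored in embryo and aleurone, were steady among the late arrays. A cupin probe set read −3.66, −3.90 and −3.27 at 14 DAA and 0.50, 0.81 and 0.41 at 28 DAA, a log2 fold change of 4.18 (SE 0.20, adjusted p = 1.13e-07). Embryo globulin rose by 3.60 (SE 0.25).

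Gluten proteins of the starchy endosperm depended more on single arrays. Gamma-gliadin B-I read −5.40, −4.92 and −4.64 at 14 DAA and 0.63, −2.41 and −2.86 at 28 DAA. All late arrays were higher, but replicate 1 was close to the IITR26 means of 0.27 and 0.08, and the log2 fold change of 3.44 (SE 0.67, adjusted p = 0.003) became 2.35 without it. A low molecular weight glutenin subunit with related sequence had a log2 fold change of 3.48 (SE 0.63), which became 2.48 without replicate 1. After a further quantile normalization the log2 fold changes were 1.51 for the gliadin and 1.63 for the glutenin subunit, and neither was called. The gliadin call also ended without 14 DAA replicate 1 (limma, adjusted p = 0.0153), without 14 DAA replicate 2 (0.0105), with only the 6 WL711 arrays (0.0447) and with a replicate block (0.0104), and the glutenin call without 14 DAA replicate 1 (0.0107) and with only the 6 WL711 arrays (0.0352). For another glutenin probe set the log2 fold change of 2.34 (SE 0.44) became 1.65 without replicate 1 and the call ended. An alpha-gliadin probe set read 0.97, 0.74 and −0.12 at 28 DAA, with a log2 fold change of 3.22 (SE 0.35) and 2.99 without replicate 1.

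Proteins that act on fungal walls and enzymes were among the largest rises. Wheatwin, a chitin-binding protein of pathogenesis-related class PR-4, read −7.46, −7.42 and −6.64 at 14 DAA and 1.2, 2.25 and 1.51 at 28 DAA. The stages were far apart, and the log2 fold change was 8.82 (SE 0.36, adjusted p = 4.16e-08). WGA2, wheat germ agglutinin, a chitin-binding lectin of the embryo, rose by 8.84 (SE 0.49, adjusted p = 2.79e-07), and it was not among the probe sets chosen by the study. A chitinase family protein rose by 7.88 (SE 0.22), a basic endochitinase by 7.5 (SE 0.32) and a xylanase inhibitor, which blocks fungal enzymes that degrade plant walls, by 6.82 (SE 0.43), all in log2 fold change.

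A probe set that the study named as a glycine-rich protein read −8.93, −9.79 and −7.82 at 14 DAA and 0.80, 0.72 and 0.56 at 28 DAA. The late arrays lay closer together than the early ones, with no overlap, and the log2 fold change was 9.54 (SE 0.52, adjusted p = 2.54e-07). The ice recrystallization inhibition protein, which in cold-hardened grasses limits the growth of ice crystals, rose by 5.65 (SE 0.31). The precursor of the antimicrobial peptide L-1 read 0.93 in replicate 1 and −1.96 and −2.13 in replicates 2 and 3 at 28 DAA. Its IITR26 means were 0.22 and 0.53, and the log2 fold change of 6.09 (SE 0.65) became 5.10 without replicate 1.

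The defence lists as a whole went both ways. Of 23 pathogenesis-related enzymes and inhibitors, 8 rose and 9 fell, and without replicate 1, 8 rose and 7 fell. Of 20 antimicrobial proteins, 8 rose and 6 fell, with or without that array. A thaumatin-like probe set, named permatin or osmotin, from a family that acts on fungal membranes, read 6.29, 6.75 and 6.32 at 14 DAA and −0.71, −0.04 and −0.22 at 28 DAA. It fell by 6.77 (SE 0.29, adjusted p = 5.95e-08) in log2 fold change. Defensins are small cysteine-rich antifungal peptides. One defensin read 7.07, 6.80 and 6.78 early and −0.56, 1.75 and 1.63 late, so that replicate 1 was the lowest, and its log2 fold change of −5.95 (SE 0.47) was −5.20 without replicate 1. Tk-AMP-D5 fell by 5.68 (SE 0.23) and Tk-AMP-D4 fell by 5.44 (SE 0.59), with late arrays at −2.92, −0.65 and 0.12 for the latter. A dirigent protein, of the family that guides the coupling of lignans, fell by 6.36 (SE 0.38).

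Inhibitors of proteases and amylases were also divided: of 22 probe sets 5 rose and 5 fell, and without replicate 1, 4 rose and 5 fell. The first of the cystatin probe sets, for a protein that inhibits cysteine proteases, read 7.59, 8.30 and 6.51 at 14 DAA and −0.12, 0.38 and 0.01 at 28 DAA. The early arrays were far above the late ones, and the log2 fold change was −7.38 (SE 0.34, adjusted p = 8.08e-08). A second cystatin fell by 6.25 (SE 0.34), a peptidase inhibitor fell by 5.02 (SE 0.22) and the alpha-amylase/subtilisin inhibitor, which blocks the grain's own amylase, fell by 3.98 (SE 0.30). In the other direction, the subtilisin/chymotrypsin inhibitor rose by 4.06 (SE 0.34), with late arrays at 1.29, −0.17 and −0.10. The trypsin/alpha-amylase inhibitor CMX1/CMX3 had late arrays at 1.09, −0.37 and −0.57, and its log2 fold change of 2.29 (SE 0.39) became 1.77 without replicate 1, which ended the call.

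**Figure D3:**
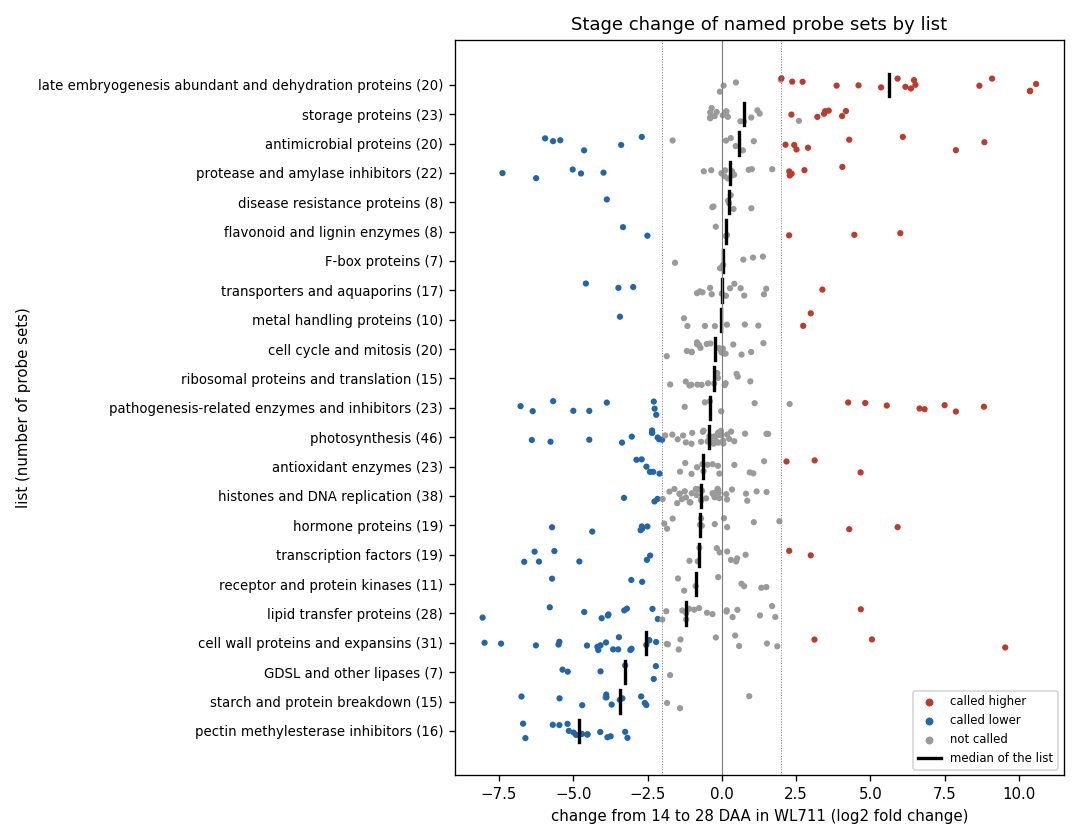
Log2 fold change from 14 to 28 DAA in WL711 (x axis) of every named probe set in each list of 7 or more members (y axis, number of members in brackets); colours mark the call, the bar is the median and dotted lines mark 2 log2 units. All 16 pectin methylesterase inhibitors lie on the lower side, the LEA list has its median at 5.64, and the pathogenesis-related list has called members on both sides.

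Most proteins of the growing cell wall that were called fell. Of 31 probe sets, 19 fell, 3 rose and 9 were not called, with a median log2 fold change of −2.54, and the counts without replicate 1 were the same. All 31 were chosen by the study, and the largest change among them was the rise of the glycine-rich protein described above. An extensin family protein, a structural glycoprotein of the wall, read 7.60, 7.69 and 7.13 at 14 DAA and −0.82, 0.09 and −0.79 at 28 DAA. It fell by 7.98 (SE 0.40, adjusted p = 1.49e-07) in log2 fold change, with no overlap. A pherophorin-like wall protein fell by 7.43 (SE 0.22) and an expansin, which loosens walls during growth, fell by 5.47 (SE 0.18). A probe set named expansin precursor went the other way, from −1.05, −1.15 and −0.99 to 1.42, 2.27 and 2.49, a rise of 3.12 (SE 0.44, adjusted p = 0.000323).

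Pectin methylesterase inhibitors, which hold back the enzymes that stiffen pectin, fell without exception among the 16 probe sets named so, with or without replicate 1. Their changes ran from −6.69 to −3.18 with a median of −4.80. The one that fell most read 6.60, 6.81 and 6.65 at 14 DAA and −0.29, −0.04 and 0.33 at 28 DAA, and the log2 fold change of −6.69 had an SE of 0.14 (adjusted p = 9.6e-10). A second, named by its pectinesterase inhibitor domain, fell by 6.61 (SE 0.24). The late arrays of this second probe set read −2.47, −2.11 and −1.46 and lay less close together than its early ones. All 16 probe sets had been chosen by the study.

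Lipid transfer proteins (LTPs), small secreted proteins that bind lipids and are found in cuticle and seed coats, included the largest fall of all named probe sets. Of 28 probe sets, 26 of them chosen by the study, 10 fell and 1 rose, and without replicate 1, 9 fell. The LTP family probe set that fell most read 6.82, 6.98 and 6.84 at 14 DAA and −1.44, −0.97 and −1.12 at 28 DAA. That is a log2 fold change of −8.05 (SE 0.41, adjusted p = 1.53e-07). A type 2 LTP fell by 5.79 (SE 0.21), and the LTP probe set whose primers are printed above, fell by 4.63 (SE 0.19). The only rise was that of LTPL39, from −0.40, −0.36 and −0.53 to 3.96, 4.39 and 4.39, a log2 fold change of 4.68 (SE 0.20, adjusted p = 5.71e-08).

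Of 19 probe sets for transcription factors, all chosen by the study, 7 fell and 2 rose, also without replicate 1. Of the 7, 5 were named MYB factors. The MYB probe set that fell most read 7.15, 7.76 and 5.26 at 14 DAA and −0.09, −0.01 and 0.33 at 28 DAA, a log2 fold change of −6.65 (SE 0.47, adjusted p = 1.52e-06). Replicate 3 of 14 DAA was the lowest early array, and still far above the late ones. Another MYB probe set fell by 6.30 (SE 0.30). A WD repeat-containing protein fell by 6.71 (SE 0.35), and a probe set named stress responsive fell by 7.20 (SE 0.19). The aleurone-specific Nam-1, which shares its name with NAC factors of senescence in wheat, read −2.53, −2.75 and −2.16 early and 0.15, 0.89 and 0.51 late. It rose by 2.99 (SE 0.22, adjusted p = 1.95e-06). A NAC domain protein and NAC 67 had log2 fold changes of 0.52 (SE 0.17) and 0.80 (SE 0.31) and were not called.

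Transcripts of the antenna, the photosystems and chlorophyll synthesis were among those that fell. Of 46 probe sets for photosynthesis 11 fell and none rose, and 10 fell without replicate 1. Of the 10 chosen by the study 8 fell, with a median of −2.69, and of the 36 others, most of them for the chloroplast gene rbcL, 3 fell, with a median of −0.26. Protochlorophyllide reductase, the light-dependent enzyme of chlorophyll synthesis, read 4.04, 4.23 and 3.93 at 14 DAA and −3.16, −1.91 and −1.91 at 28 DAA. It fell by 6.40 (SE 0.27, adjusted p = 5.73e-08) in log2 fold change, and by 5.98 without replicate 1, the lowest of the late arrays. A light-harvesting protein of photosystem II fell by 5.77 (SE 0.38), a chlorophyll a-b binding protein fell by 4.46 (SE 0.22) and a subunit of photosystem I fell by 3.03 (SE 0.20).

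Enzymes that break down starch and proteins fell in 11 of 15 probe sets, with a median log2 fold change of −3.44. Beta-amylase, one of the most abundant enzymes of the grain, was not among those chosen by the study. It read 4.18, 4.75 and 4.89 at 14 DAA and −1.83, −2.66 and −1.91 at 28 DAA, and fell by 6.74 (SE 0.37, adjusted p = 2.54e-07). The aspartic proteinase nepenthesin-2 read −3.52, −1.22 and −0.39 in the late arrays, and its log2 fold change of −5.46 (SE 0.56) was −4.56 without replicate 1. A subtilisin homologue, a serine protease, fell by 4.70 (SE 0.22). An aspartyl protease read 6.32, 6.34 and 6.58 early and −0.64, 3.22 and 4.90 late. With late arrays so far apart it was not called, at −3.92 (SE 0.98, adjusted p = 0.0137), and without replicate 1 it was, at −2.35 (adjusted p = 0.00149).

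None of the 4 probe sets for starch synthesis was called by limma or by the methods' t-test, although 3 had an unadjusted p under 0.05 and 1 an adjusted p of limma of at most 0.01. The small subunit of ADP-glucose pyrophosphorylase, the enzyme that commits sugar to starch (AGP-S), had a log2 fold change of −0.82 (SE 0.14), and the large subunit one of −0.74 (SE 0.18). The granule-bound starch synthase of the waxy locus, which makes amylose, was at −0.50 (SE 0.23) and the debranching isoamylase at 0.34 (SE 0.15).

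Few genes of dividing cells were called. Of 38 histone and replication probe sets 3 fell and none rose, with a median log2 fold change of −0.69, and 1 fell without replicate 1. The change was below 0 in 31 and above 0 in 7. An adjusted p of limma of at most 0.01 was reached by 15, most of them short of the size needed for a call. A DNA topoisomerase read 2.56, 3.05 and 2.94 early and −0.37, −0.25 and −0.69 late, and fell by 3.29 (SE 0.20, adjusted p = 5.12e-07). A histone H2A probe set had a log2 fold change of −2.27 (SE 0.28) with all arrays and −1.96 without replicate 1, when it was no longer called. None of 20 probe sets for the cell cycle and mitosis was called by limma or by the methods' t-test, although 12 had an unadjusted p under 0.05. Of the 20, 7 had an adjusted p of limma of at most 0.01 and fell short only of the size of change. Among them cyclin B2 was at −1.85 (SE 0.22, limma, adjusted p = 0.000102).

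Endosperm transfer cells carry nutrients from the maternal tissue into the endosperm. ZmEBE-1, named after a maize gene of the basal endosperm, read 3.50, 3.90 and 3.12 at 14 DAA and −2.12, −0.98 and −0.16 at 28 DAA, and fell by 4.59 (SE 0.39, adjusted p = 6.35e-06). The transfer cell proteins PR9 and PR60 changed less. PR9 had a log2 fold change of −2.21 (SE 0.26) and of −1.97 without replicate 1, which ended the call, and PR60 was at −0.56 (SE 0.27).

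Of 17 transporters and aquaporins 3 fell and 1 rose, also without replicate 1. The aquaporin NIP1, of a subfamily that passes small uncharged solutes, read 3.88, 4.04 and 4.08 early and −1.46, −0.10 and −0.17 late, and fell by 4.58 (SE 0.32, adjusted p = 1.43e-06). An ammonium transporter read −2.26, −1.13 and −0.01 late and fell by 3.48 (SE 0.47), or by 2.92 without replicate 1. The tonoplast aquaporin TIP3, of the seed-specific type that sits in protein storage vacuoles, rose by 3.39 (SE 0.25).

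The study followed several genes of mineral handling, since WL711 is its low mineral genotype. Of 10 probe sets 2 rose and 1 fell. Nam-1, described above, was one of the rises, and a probe set for transition metal ion binding was the other, from −2.45, −1.98 and −2.01 to 0.69, 0.59 and 0.49, a log2 fold change of 2.74 (SE 0.14, adjusted p = 1.38e-07). Calreticulin 1, a calcium-binding chaperone, fell by 3.43 (SE 0.25). Metallothionein, a small metal-binding protein, read −2.48, −1.96 and −1.75 early and −1.54, −1.03 and −1.30 late, and its log2 fold change of 0.77 (SE 0.18, adjusted p = 0.00831) was too small for a call. The manganese-binding probe set was at 1.23 (SE 0.14), nicotianamine synthase 3, which makes a metal chelator, at −0.23 (SE 0.16), and the protein transport factor SecE at 0.14 (SE 0.19).

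Among 19 hormone proteins 6 fell and 2 rose. A probe set named after the BRI1-associated receptor kinase of brassinosteroid signalling fell by 5.71 (SE 0.18), lipoxygenase, of the enzyme family that starts jasmonate synthesis, fell by 4.36 (SE 0.39), and a gibberellin-regulated protein of the GASA family rose by 4.29 (SE 0.23). Among the other gibberellin-regulated probe sets of that list, some were lower at 28 DAA. Of 7 GDSL and other lipases, all chosen by the study, 6 fell, and the one that fell most fell by 5.36 (SE 0.23). In the flavonoid pathway, the bifunctional dihydroflavonol 4-reductase rose by 6.01 (SE 0.26), from −5.17, −5.46 and −4.89 to 0.72, 1.02 and 0.75, and flavanone 3-hydroxylase by 2.33 (SE 0.40), with late arrays at 0.66, 1.40 and 2.62. The latter call ended without 28 DAA replicate 3, when the log2 fold change was 1.80, with only the 6 WL711 arrays (limma, adjusted p = 0.0185) and by the methods' t-test. Antioxidant enzymes were divided, 6 of 23 falling and 3 rising. Peroxidase precursors also went both ways, and the largest change among them was a rise of 4.67 (SE 0.33).

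Cell type markers are given by array beside these lists. All of them are members of the lists above and were selected by the study, so that they are no separate evidence on the lists, and the part of cell composition in the results was not tested. Probe sets that the study did not choose are not among the markers. Of 36 such probe sets for photosynthesis 3 fell (median −0.26), and of 16 for storage proteins 2 rose (median 0.18). Of 8 markers of the green pericarp 7 fell, and the median of the list went from between 2.52 and 2.96 on the early arrays to between −0.90 and −0.32 on the late ones. Of 6 embryo and aleurone markers 3 rose, and the list's median went from between −1.32 and −1.14 to between 0.68 and 1.14. Of 5 starchy endosperm markers 3 rose. The median of that list was −5.40 to −4.64 early, and 0.63, −2.41 and −2.86 late, so that replicate 1 was again the highest; these medians are the values of gamma-gliadin B-I itself. None of 16 markers of dividing cells was called, and 2 of 3 transfer cell markers fell, 1 of them without replicate 1.

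The 3 late arrays were ordered on the probe sets that change with stage. On the 812 probe sets that rose in IITR26, which were chosen without any WL711 array, the median distance from the WL711 14 DAA mean was 1.87 in replicate 1, 1.83 in replicate 2 and 1.44 in replicate 3. On the 973 that fell in IITR26 the medians were −1.90, −1.62 and −1.35. Replicate 1 was the farthest of the 3 arrays on 57% of the first set and 65.2% of the second. These sets were chosen by the change in IITR26, and replicate 1 correlated more with the late IITR26 arrays than the others did. The order may depend on that, which was not tested. On the probe sets called in WL711 without replicate 1, that array was the farthest on 48.2% of 587 that rose and 60.1% of 742 that fell. Of the 129 calls that ended without replicate 1, 34 upward and 95 downward, 115 still had an adjusted p of at most 0.01 and fell short of the size of change. Among named probe sets, 13 were lost. They included an endoglucanase, an enzyme of cell wall glucans, which went from −2.26 to −1.94, and the fructan exohydrolase 6-FEH, from 2.19 to 1.46.

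The stage change of WL711 was compared with that of IITR26 by the difference of the changes, fitted over all 12 arrays; the comparisons share no arrays. In IITR26, 812 probe sets rose and 973 fell, which is 1.33% and 1.59% of those tested. The 341 that rose in both make up 58.2% of those that rose in WL711 and 42% of those that rose in IITR26. The 394 that fell in both make up 48.1% and 40.5%. Across probe sets, which are not independent, the changes correlated at r = 0.618. The difference was called for 933 probe sets, or 1.53%, with 487 changes (0.796%) higher and 446 (0.729%) lower in WL711. Of the probe sets called in WL711, 161 rose more and 24 rose less than in IITR26, and 208 fell more and 25 fell less. Choosing probe sets by their call in WL711 favours large changes there, so that these counts do not tell which genotype changed more. Without replicate 1 the difference was called for 545 and 421 probe sets, and 839 of the 933 calls remained.

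Em rose in both genotypes. Its log2 fold change was 10.65 in IITR26 and the difference, −0.08 (SE 0.95, limma, adjusted p = 0.978), was not called. The IITR26 arrays at 14 DAA read −6.32, −5.93 and −3.10 for Em, so that replicate 3 stood apart from the others. That array was also the highest early IITR26 array for the EMH2 and Rab15 probe sets described above. Among the 10 LEA probe sets that the study did not choose, no difference was called. These 10 are what the study's choice by genotype difference left over, so that this count is not independent. Among the chosen ones LEA-12 rose by 3.51 in IITR26, where its 14 DAA mean was −1.39 against −5.34 in WL711, and the difference was 2.85 (SE 0.40, adjusted p = 0.00107). Several falls of WL711 had no counterpart among the calls of IITR26: the IITR26 change was −0.02 for the MYB probe set that fell most in WL711, −0.01 for the first cystatin and −0.05 for the pectin methylesterase inhibitor that fell most. In these 3, both IITR26 stages and WL711 at 28 DAA had means between −0.08 and 0.09, and WL711 at 14 DAA stood alone. Their differences were −6.63 (SE 0.66), −7.37 (SE 0.48) and −6.64 (SE 0.20), each called.

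Other lists had more falls in IITR26 than in WL711. Of the 38 histone and replication probe sets 25 fell in IITR26, against 3 in WL711, and the difference was called higher in WL711 for 21 and lower for 1. Of the 17 not chosen by the study, 12 fell in IITR26 and 9 differences were called. The 20 cell cycle probe sets showed less of this: 4 fell and 1 rose in IITR26 and 4 differences were called. Of the 10 not chosen by the study none fell, none rose and no difference was called by limma. Whether the study's choice had a part in that lack of differences was not tested, here or for the LEA proteins. All 4 starch synthesis probe sets fell in IITR26 and 3 differences were called. The transfer cell protein PR9 fell by 8.12 in IITR26, a difference of 5.91 (SE 0.37, adjusted p = 6.89e-06), and flavanone 3-hydroxylase fell by 5.22 there, with the less stable change of 2.33 in WL711, a difference of 7.55 (SE 0.57, adjusted p = 1.81e-05). Probe sets that rose in WL711 and fell in IITR26 numbered 6, and none fell in WL711 and rose in IITR26.

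**Figure D4:**
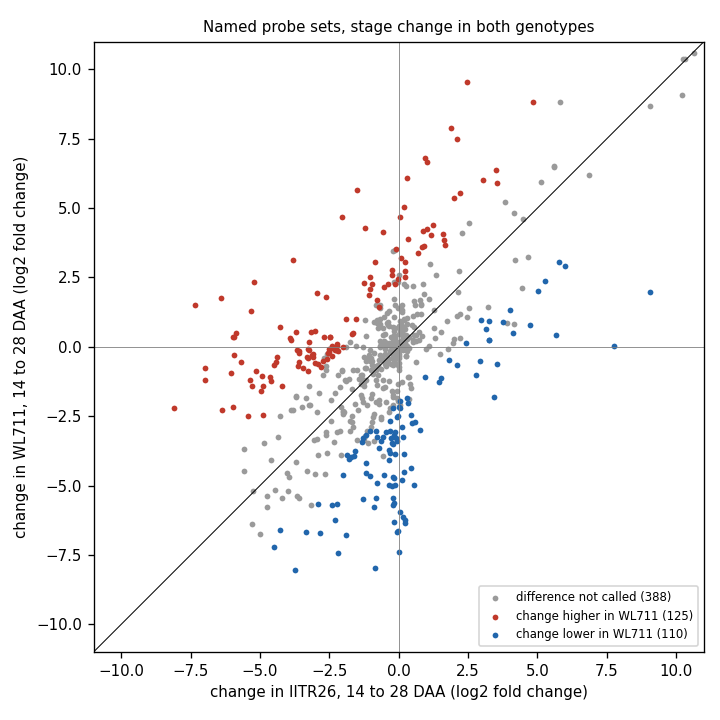
Log2 fold change from 14 to 28 DAA in IITR26 (x axis) and WL711 (y axis) of the 623 named probe sets, coloured by the call on the difference of the changes, with the line of equal change. The 125 probe sets with a higher and the 110 with a lower change in WL711 lie off the line, many of the latter at 0 on the IITR26 axis, and Em lies on the line at the upper right. Of the 623, 431 had been chosen by the study for differences between the genotypes.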

How the data were processed

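Total RNA of whole developing grains was measured on 12 wheat GeneChips, which the authors normalized by RMA in GeneSpring GX. The deposited values are log2 and cover 61179 probe sets beside 111 controls. Each probe set has a median of 0 over the 12 arrays, a step the sources used here do not describe, so that signal over background is unknown. Of the probe sets tested, 12726 carry a suffix for probes shared with other transcripts.

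Groups follow the labels, also for WL711 28 DAA replicate 1, whose identity is in doubt. Group means of all 12 arrays were fitted with limma 3.58.1 in R 4.3.3, so that the 4 groups share 1 estimate of the spread (8 residual degrees of freedom), and p-values were adjusted by Benjamini and Hochberg over all probe sets. The number of arrays limits the precision, and p-values measure only the spread between these samples. The scripts were tested on simulated data. Functions were read from the study's list of 580 probe sets and gene names from the platform annotation, which named 1273 probe sets, many by a locus number only. Lists were made from keywords and gene names, and the members and lists were chosen with earlier results of these data known; the lists by gene name were made after the values were seen. Named probe sets are the 15 that rose and fell most, up to 6 of the largest changes of each list, the largest differences from IITR26, calls that depend on 28 DAA replicate 1 (at most 6), and genes the study followed; the F-box and SKP1-like examples are of the list of F-box proteins. Alternatives covered the arrays and the replicate block in the fit, weights, the methods' t-test and variation filter, further normalization, shared probes and thresholds. Each WL711 array was also left out in turn, but no IITR26 array was.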

Additional observations from a re-analysis of the deposited data

Results flagged for a closer look

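The stage change of WL711 was set against that of IITR26 by the interaction term of the limma fit over 12 arrays, and the results below are those for which this difference, WL711 minus IITR26 in log2 units, was called. It was higher for 487 probe sets and lower for 446. Of the probe sets named in the text it was called for 58, and for 55 of these also without WL711 28 DAA replicate 1; the exceptions were the subtilisin/chymotrypsin inhibitor, the alpha-amylase/subtilisin inhibitor and the unnamed probe set that fell most. Without that array the difference was also called for gamma-gliadin B-I (2.54, from 3.63 not called), the glutenin subunit beside it (2.61, from 3.62) and Nam-1 (2.03, from 1.85). Most of the 58 had been chosen by the study for a genotype difference on these same arrays. Some were also named here for the size of the difference. Their number is therefore no measure of how common such differences are, and over all probe sets tested the share was 1.53%. No explanation was tested.

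Among proteins of drying and storage the difference was 2.85 for LEA-12, 2.37 for HVA22, 3.38 for PCC13-62, 3.31 for the cupin, 2.76 for embryo globulin, 3.14 for alpha-gliadin and −5.24 for the caleosin-related protein. Among inhibitors it was 2.45 for the subtilisin/chymotrypsin inhibitor, 3.55 for CMX1/CMX3, −7.37 and −6.49 for the first and the second cystatin, −4.79 for the peptidase inhibitor and −2.25 for the alpha-amylase/subtilisin inhibitor. Among defence proteins it was 3.97 for wheatwin, 5.98 for the chitinase family protein, 5.40 for the basic endochitinase, 5.88 for the xylanase inhibitor and 5.78 for L-1. It was 7.14 for the ice recrystallization inhibition protein, −5.99 for the defensin that fell most, −2.76 for Tk-AMP-D5, −4.88 for the thaumatin-like protein and −6.60 for the dirigent protein.

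For wall and lipid transfer proteins the difference was 7.07 for the glycine-rich protein, −7.12 for the extensin family protein, −5.23 for pherophorin, −4.67 for the expansin that fell, 6.94 for the expansin precursor and 4.09 for the endoglucanase. It was −6.64 and −2.33 for the pectin methylesterase inhibitor that fell most and the one named by its domain, and −4.31, 6.71 and −4.11 for the LTP probe set that fell most, LTPL39 and the one with printed primers. For regulators it was −6.63 and −6.12 for the MYB probe sets described above, −3.86 for the WD repeat-containing protein, −2.69 for the stress responsive probe set, −3.61 for the NAC domain protein and −3.95 for NAC 67.

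For enzymes of carbon and protein turnover and of photosynthesis the difference was −4.87 for the light-harvesting protein, −4.49 for the subtilisin homologue, 2.07 for the large subunit of ADP-glucose pyrophosphorylase, 2.21 for the granule-bound starch synthase and 3.03 for isoamylase. It was −2.0 for DNA topoisomerase, 5.91 for PR9, 3.88 for PR60, 2.68 for TIP3, 2.5 for the transition metal ion binding probe set and 2.30 for nicotianamine synthase 3. It was 7.55 for flavanone 3-hydroxylase, 2.98 for the dihydroflavonol reductase, −3.32 for the BRI1-associated kinase, −4.79 for lipoxygenase, 5.50 for the GASA protein and 4.61 for the peroxidase precursor. The unnamed probe set that fell most was at −4.34.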

How the results depend on the processing

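Across the settings run, no called probe set was called in the opposite direction. Adjusting the methods' t-test left 192 that rose and 247 that fell, and the methods' filter on variation left 364 that rose. Without probe sets with shared probes, 381 rose and 509 fell of 48453 tested, and the difference from IITR26 was higher for 284 and lower for 297. With a log2 fold change of at least 1, 1663 rose and 2521 fell, and the difference was higher for 1332 and lower for 1178. Leaving out each WL711 array gave 569 to 621 that rose, 742 to 895 that fell, and 432 to 545 higher and 382 to 429 lower differences.

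The count of storage proteins that rose was 4 with only the 6 WL711 arrays, by the methods' t-test, after its variation filter and after further quantile normalization, 2 by the adjusted t-test and 1 without shared probes, and 4 to 7 with an array left out, the lowest without 14 DAA replicate 1. After the variation filter, 7 LEA proteins, 2 inhibitors, 4 antimicrobial proteins and 4 pathogenesis-related proteins rose, and 3 inhibitors, 3 antimicrobial proteins and 9 pectin methylesterase inhibitors fell. Without shared probes, 9 LEA proteins and 1 inhibitor rose, and 6 photosynthesis, 3 lipid transfer and 11 wall proteins fell. By the adjusted t-test, 0 inhibitors and 3 antimicrobial proteins rose. By the same test, 3 photosynthesis, 6 breakdown, 1 inhibitor, 6 lipid transfer, 1 antimicrobial, 3 pathogenesis-related, 11 wall, 6 pectin methylesterase inhibitor, 1 antioxidant, 2 transcription factor and 2 hormone probe sets fell. After further quantile normalization 2 inhibitors rose and 3 hormone proteins fell, and with a log2 fold change of at least 1, 17 photosynthesis probe sets fell. Of the cell cycle list, which had no call, cyclin B2 fell by 2.04 without 28 DAA replicate 2 and was also called at a log2 fold change of at least 1, with 4 falls and 1 rise in the list. Of the photosynthesis list, in which none rose, 1 probe set rose without 14 DAA replicate 2. Apart from settings that test fewer probe sets, the cause was not tested.

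Same-numbered arrays of the stages deviated together with correlations of 0.0202, 0.0702 and 0.0435 in WL711, so that the numbers were not taken to pair samples. With the replicate number as a block, 584 rose and 818 fell, and the difference was higher for 449 and lower for 395; gamma-gliadin B-I lost its call (limma, adjusted p = 0.0104).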
